A study of Mus musculus with 2 samples.

Results

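The proteins of the cytosolic ribosome and the factors that start translation were set against a map of H3K9bhb, the β-hydroxybutyrylation of histone H3 at lysine 9. The members were the protein-coding genes of the RefSeq gene table for the mouse assembly GRCm38.p6 (mm10) whose symbols begin with Rpl, Rps or Eif followed by a digit, without the Rps6k kinases. They numbered 143 of 21900 protein-coding genes: 87 ribosomal protein genes and 56 initiation factor genes. The choice used symbols and no measured value, but it was made with earlier results of these data known. A peak was assigned to a gene where any summit of the deposited peak list fell inside it or no more than 5 kb away.

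The series holds 1 H3K9bhb ChIP-seq library and 1 input DNA library (DNA taken without antibody), each given in the labels as 70 M reads. Both came from C57BL/6 mouse CD8+ memory T cells. Spleen cells of OT-I mice, whose T cell receptor is a transgene that recognises an ovalbumin peptide, were stimulated for 3 days with 200 ng/ml of that peptide plus 10 ng/ml of interleukin-2. Interleukin-15 (10 ng/ml) followed for 4 days, and the resulting memory cells received β-hydroxybutyrate (BHB) for 3 days. Everything below comes from the ChIP library's peak list. No culture without BHB and no second ChIP library was analysed here, so no value below is a response to BHB and none has a replicate; the intervals of shares are exact binomial 95% intervals, which cover counting error only and treat genes as independent. No peak was called at any of 8 genes taken as T cell markers (Cd8a, Cd8b1, Cd3e, Cd3d, Cd3g, Cd2, Thy1 and Lck). None was called at 7 genes taken as markers of other blood cells. These counts of 0 allow shares up to 36.9% and 41.0% (upper ends of the exact intervals). Both intervals include the background share, 11.4% over the 21900 protein-coding genes. The list therefore neither shows nor contradicts the labelled cell type.

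The ribosome joins a large subunit, built from the Rpl proteins, to a small one, built from the Rps proteins, around ribosomal RNA. Initiation factors bring the first transfer RNA, the small subunit and the messenger RNA together: the cap is bound by Eif4e, RNA structure is opened by the Eif4a helicases, Eif3 holds the small subunit, and Eif2 delivers the initiator transfer RNA. Ribosomal protein genes are short and are among the most strongly transcribed genes of dividing cells. Many of their messenger RNAs begin with a run of pyrimidines, the TOP element, through which mTOR signalling controls their translation. Activated T cells raise translation strongly, and memory cells lower it again.

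Of the 143 genes, 13 had a peak (9.09%, 95% interval 4.93 to 15.04), against 11.4% of all protein-coding genes. Among ribosomal protein genes 7 of 87 had a peak (8.05%, interval 3.30 to 15.9). These were Rps10, Rps20, Rps27l, Rpl19, Rpl23a, Rpl35a and Rpl38. Among initiation factor genes 6 of 56 had a peak (10.7%, interval 4.03 to 21.9), namely Eif2b5, Eif3j1, Eif3m, Eif4a3, Eif4b and Eif5b. Both intervals include the background share. Ribosomal protein minus initiation factor genes gave a difference of -2.67 percentage points with a Newcombe interval from -14.2 to 6.87, so the 2 families were not told apart at these numbers.

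Each of the 6 initiation factor genes with a peak, and 4 of the ribosomal protein genes with one, had a summit within 1 kb of a start of its own. Starts and strands were taken from the RefSeq promoter table, which lists a start for 44 initiation factor genes, 67 ribosomal protein genes and 17492 of all protein-coding genes. For 9 genes on which the results turn, the promoter of the listed start farthest upstream is printed here from the RefSeq table (build GRCm38.p6), 5′ to 3′ in the direction of the gene, from 250 bases before that start to 50 from it onward. The first 8 have a summit near a listed start, and Rps6, a ribosomal protein gene with no peak, is shown beside them. Rps10 is at chr17:27635195-27635494 on the minus strand, Rpl19 at chr11:98026460-98026759 on the plus strand, Rpl38 at chr11:114668330-114668629 on the plus strand, and Rps27l at chr9:66945836-66946135 on the plus strand. Eif5b is at chr1:37997760-37998059 on the plus strand, Eif3j1 at chr2:122028330-122028629 on the plus strand, Eif3m at chr2:105016978-105017277 on the minus strand, and Eif4b at chr15:102073523-102073822 on the plus strand. Rps6 is at chr4:86857318-86857617 on the minus strand. Capitals mark the ETS core CCGGAA and the pyrimidine run CTTTCC, each on either strand (reverse complements TTCCGG and GGAAAG); matches to the 2 motifs can overlap.
Rps10: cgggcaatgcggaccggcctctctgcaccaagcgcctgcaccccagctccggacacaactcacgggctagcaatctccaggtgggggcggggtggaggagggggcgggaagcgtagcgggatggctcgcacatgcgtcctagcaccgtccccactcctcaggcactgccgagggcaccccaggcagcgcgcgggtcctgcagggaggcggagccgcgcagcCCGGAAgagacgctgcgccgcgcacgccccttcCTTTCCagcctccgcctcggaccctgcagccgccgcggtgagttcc
Rpl19: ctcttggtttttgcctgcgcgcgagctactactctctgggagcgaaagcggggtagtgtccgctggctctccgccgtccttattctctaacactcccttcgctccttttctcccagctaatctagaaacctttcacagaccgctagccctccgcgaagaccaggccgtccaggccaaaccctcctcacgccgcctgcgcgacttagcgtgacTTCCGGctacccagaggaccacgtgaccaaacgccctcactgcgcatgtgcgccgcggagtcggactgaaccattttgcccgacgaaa
Rpl38: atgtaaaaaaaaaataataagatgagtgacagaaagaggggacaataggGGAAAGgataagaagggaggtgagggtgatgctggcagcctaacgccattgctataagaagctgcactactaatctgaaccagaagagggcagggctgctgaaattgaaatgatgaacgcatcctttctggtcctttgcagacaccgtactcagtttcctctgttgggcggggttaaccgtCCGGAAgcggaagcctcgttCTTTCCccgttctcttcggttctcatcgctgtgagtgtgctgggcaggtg
Rps27l: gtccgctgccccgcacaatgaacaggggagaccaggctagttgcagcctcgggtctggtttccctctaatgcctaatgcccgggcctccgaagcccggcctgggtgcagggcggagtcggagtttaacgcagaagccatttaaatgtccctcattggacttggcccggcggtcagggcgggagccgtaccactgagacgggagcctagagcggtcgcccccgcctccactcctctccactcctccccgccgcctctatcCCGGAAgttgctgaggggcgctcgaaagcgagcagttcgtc
Eif5b: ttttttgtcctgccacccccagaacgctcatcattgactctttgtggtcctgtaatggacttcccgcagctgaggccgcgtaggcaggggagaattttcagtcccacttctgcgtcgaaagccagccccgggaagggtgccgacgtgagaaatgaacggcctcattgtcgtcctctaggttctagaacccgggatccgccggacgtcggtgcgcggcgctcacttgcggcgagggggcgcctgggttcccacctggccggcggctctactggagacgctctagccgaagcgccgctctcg
Eif3j1: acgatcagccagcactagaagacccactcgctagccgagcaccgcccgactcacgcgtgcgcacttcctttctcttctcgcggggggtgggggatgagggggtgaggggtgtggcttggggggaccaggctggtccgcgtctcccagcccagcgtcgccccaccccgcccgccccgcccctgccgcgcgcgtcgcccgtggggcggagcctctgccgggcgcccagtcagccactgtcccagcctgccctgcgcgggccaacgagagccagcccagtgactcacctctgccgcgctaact
Eif3m: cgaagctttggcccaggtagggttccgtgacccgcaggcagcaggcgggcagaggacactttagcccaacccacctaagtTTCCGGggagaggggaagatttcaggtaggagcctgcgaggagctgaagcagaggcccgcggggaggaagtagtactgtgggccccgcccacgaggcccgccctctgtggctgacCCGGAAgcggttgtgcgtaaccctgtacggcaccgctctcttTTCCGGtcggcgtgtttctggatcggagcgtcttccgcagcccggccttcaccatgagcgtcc
Eif4b: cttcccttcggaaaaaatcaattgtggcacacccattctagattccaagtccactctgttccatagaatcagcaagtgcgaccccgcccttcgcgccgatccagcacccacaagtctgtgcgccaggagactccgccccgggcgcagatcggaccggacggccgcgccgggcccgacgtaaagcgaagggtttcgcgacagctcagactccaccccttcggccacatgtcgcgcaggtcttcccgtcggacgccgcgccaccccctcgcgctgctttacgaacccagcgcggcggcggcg
Rps6: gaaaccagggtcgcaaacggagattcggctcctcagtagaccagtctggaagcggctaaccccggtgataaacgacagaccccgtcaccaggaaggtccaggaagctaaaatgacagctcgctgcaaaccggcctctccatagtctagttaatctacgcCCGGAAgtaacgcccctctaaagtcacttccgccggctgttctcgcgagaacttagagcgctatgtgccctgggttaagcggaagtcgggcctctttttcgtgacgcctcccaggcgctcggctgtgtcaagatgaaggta

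At ribosomal protein genes the highest-scoring summit was that of Rps10, which encodes a protein of the small subunit. It lay on chromosome 17 at 27635194, inside the gene (27630415 to 27635244) and 50 bp downstream of its single listed start. Its score was 8.34, where the score is the authors' −log10 p or q value at the summit (the sources do not say which), and 13.2% of the 2315 summits of the list scored as high or higher. Rpl19, of the large subunit, had a summit on chromosome 11 at 98027193 with a score of 3.34. This summit was 269 bp downstream of one listed start and 483 bp downstream of the other, while the gene's annotated span (98022003 to 98030493) begins 5190 bp before it. By the ends of the span alone it would count as lying deep inside the gene.

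Rpl38 encodes a large subunit protein that in mice is needed for translation of certain Hox messenger RNAs. Its summit, on chromosome 11 at 114668723, was 143 bp downstream of the listed start and scored 2.51. Rps27l, a close relative of the small subunit gene Rps27, had a summit on chromosome 9 at 66946267, 146 bp upstream of one listed start and 181 bp downstream of the other, also with a score of 2.51. That value is shared by 109 summits of the list. Rps20, of the small subunit, had a summit on chromosome 4 at 3835521, 134 bp inside the higher-coordinate end of the gene (3831584 to 3835655), with a score of 2.27. No start is listed for it, so this end is not named as start or transcript end.

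The summits counted for the other two ribosomal protein genes lay outside them. The summit counted for Rpl35a, of the large subunit, was on chromosome 16 at 33062595, 2406 bp beyond the gene and 74 bp from a listed start of Lmln, which encodes a metallopeptidase; it scored 7.95. For Rpl23a, also of the large subunit, the summit on chromosome 11 at 78178881 lay 2054 bp outside the gene and 223 bp from a listed start of Tlcd1, with a score of 2.15. By the nearest end of a gene this summit went to Rpl23a, and by that rule Rpl35a alone was lost and 6 of 87 ribosomal protein genes (6.90%) kept a peak, against 9.26% of all protein-coding genes. When a summit had to lie inside the gene, both were lost and 5 of 87 ribosomal protein genes (5.75%) kept a peak, against 8.71% of all protein-coding genes.

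The initiation factor summits sat at the genes' own starts. Eif5b, the GTPase that joins the subunits at the last step of initiation, had its summit on chromosome 1 at 37998027, 17 bp downstream of the listed start, with a score of 3.07. A listed start of Txndc9, on the opposite strand, was 819 bp away. Eif3m, a subunit of the Eif3 complex, had a summit on chromosome 2 at 105016867, 160 bp downstream of its start, with a score of 3.50. Eif2b5, the catalytic subunit of the factor that recharges Eif2 with GTP, had its summit on chromosome 16 at 20499002, 185 bp downstream of the start, with a score of 5.41.

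Eif3j1, a loosely bound subunit of Eif3, carried peaks on both sides of its start on chromosome 2. One summit at 122028494 was 86 bp upstream and scored 5.41, and the other at 122028994 was 414 bp downstream and scored 7.56, the highest value at an initiation factor. Eif4a3 belongs to the Eif4a helicases by sequence and is a core protein of the exon junction complex. Its single peak on chromosome 11 held 2 summits, at 119299951 and 119299762, which were 92 and 281 bp downstream of the start and scored 2.77 and 3.51. Eif4b, the RNA-binding cofactor of the Eif4a helicases, had the summit farthest into the gene, on chromosome 15 at 102074371, 598 bp downstream of the start and with a score of 5.41.

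**Figure D1:**
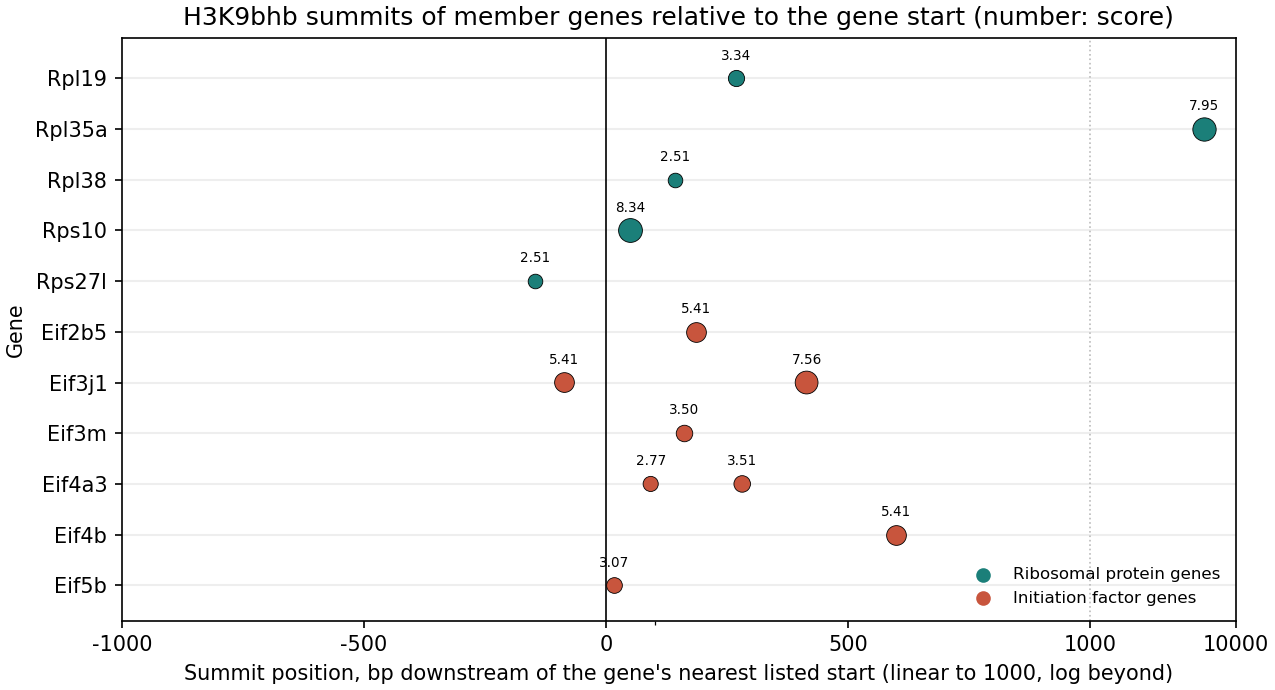
Position of each summit of the 11 member genes that have a peak and a listed start, in bp downstream of the nearest listed start (horizontal axis, linear to 1000 bp and logarithmic beyond). Point size and the printed number give the authors' score; 10 of the 11 genes have a summit between 146 bp upstream and 598 bp downstream of a start, and the Rpl35a summit lies 6081 bp downstream.

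Taking the summit nearest to a listed start in each gene, the distance for the 6 initiation factor genes ranged from 17 to 598 bp with a median of 126 bp. For the 5 ribosomal protein genes with a peak and a listed start it ranged from 50 to 6081 bp with a median of 146 bp. The median over all 2032 such protein-coding genes was 211.5 bp, with quartiles of 100 and 639.5 bp. The summit was within 1 kb of a listed start in 4 of these 5 ribosomal protein genes, in 6 of the 6 initiation factor genes and in 79.04% of all such genes. Of those 10 member genes, 8 had this summit on the transcribed side, as had 1114 of the 1606 protein-coding genes with a summit within 1 kb of a start.

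Counted over every gene with a listed start, 4 of 67 ribosomal protein genes (5.97%, interval 1.65 to 14.6) and 6 of 44 initiation factor genes (13.6%, interval 5.17 to 27.4) had a summit within 1 kb of a start. The share was 9.18% of all protein-coding genes with a listed start. The difference between the families by this measure was -7.67 percentage points with a Newcombe interval from -21.2 to 3.42. This measure was added after the data were seen, since the promoter table gave the strands.

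The members' scores were low to middling for this list. The 7 ribosomal protein summits had a median score of 2.51 and ranged from 2.15 to 8.34. Those of the initiation factors, 8 in number, had a median of 4.46 and ranged from 2.77 to 7.56, so the families overlapped over most of their range. The median over all summits was 5.04. Among summits at or above that median, Rps10 and Rpl35a remained for the ribosomal proteins, and Eif2b5, Eif3j1 and Eif4b for the initiation factors. That is 2 of 87 and 3 of 56 genes, against 5.82% of all protein-coding genes. The score 5.41 at 3 member genes is one identical value, which 65 summits of the list share.

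Among all protein-coding genes the share with a peak rose with gene length, from 3.96% under 5 kb to 17.6% over 50 kb. By its definition, the window in which a summit counts (the gene and 5 kb on each side) is wider for a longer gene. Ribosomal protein genes had a median length of 3164 bp, initiation factor genes 18497 bp and all protein-coding genes 17146 bp. Among genes under 5 kb, 6 of 71 ribosomal protein genes had a peak (8.45%, interval 3.16 to 17.5), as did 0 of 8 initiation factor genes. A count of 0 of 8 allows a share as high as 36.9% (the upper end of its exact interval). Of all protein-coding genes of that length, 3.96% had one. This class includes 1256 olfactory and vomeronasal receptor genes with 1 peak among them, and without those the background for short genes was 5.25%. Between 5 and 15 kb, 1 of 15 ribosomal protein genes and 2 of 15 initiation factor genes had a peak, against 9.45% of all protein-coding genes. The initiation factors had 3 of 25 between 15 and 50 kb, against 13.8%, and 1 of 8 over 50 kb, against 17.6%.

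Had each member the share of all protein-coding genes in its length class, 5.02% of the ribosomal protein genes and 11.8% of the initiation factor genes would have had a peak, a difference of -6.73 percentage points. The observed shares were 8.05% and 10.7%, and the interval of the observed difference includes the difference given by length. Without the olfactory and vomeronasal receptor genes, the shares by length class were 6.10% for ribosomal protein genes and 12.1% for initiation factor genes. The part of gene length in the difference between the families was not tested.

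**Figure D2:**
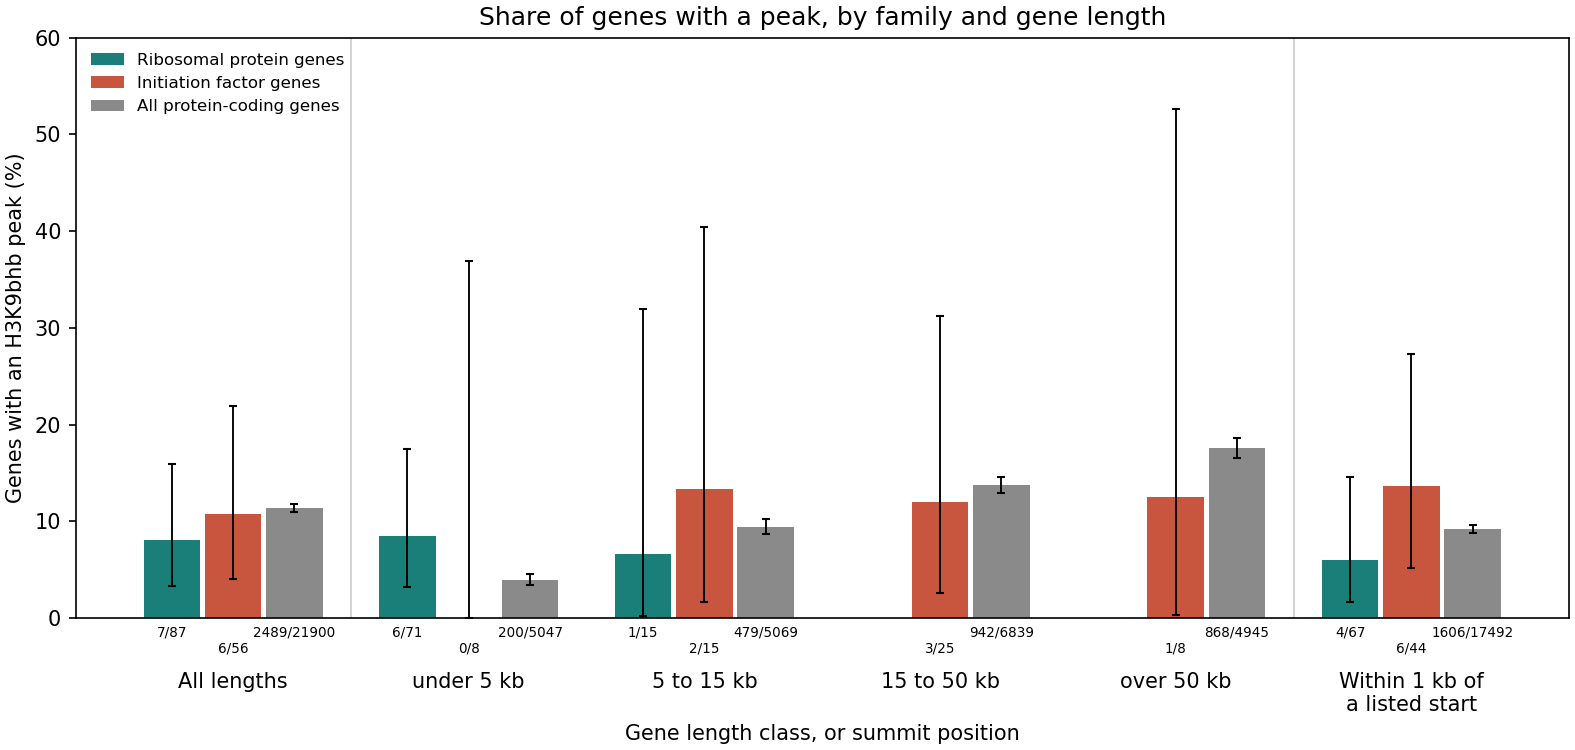
Share of genes with an H3K9bhb peak (vertical axis, percent) for ribosomal protein, initiation factor and all protein-coding genes, over all lengths, in 4 classes of gene length, and for summits within 1 kb of a listed start. Bars give the share, lines the exact 95% interval and the numbers below the genes with a peak over the genes counted; classes with fewer than 5 genes of a family are not drawn, and both families' intervals include the share of all protein-coding genes in each class drawn.

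By role, the peaks were spread over the translation machinery. The large subunit had 4 of 43 genes with a peak and the small subunit 2 of 30. Their paralogs and like-named genes had 1 of 14, which was Rps27l. Of the Eif3 subunits 2 of 14 had a peak, and of the cap-binding, helicase and scaffold group named Eif4, 2 of 12. Among the Eif2b subunits it was 1 of 5. The Eif2 subunits themselves had 0 of 4, a count that allows a share of 60.2%. The remaining factors (Eif1, Eif5, Eif6 and others) had 1 of 12, which was Eif5b. The Eif2ak kinases, the Eif4e-binding proteins and Eif4enif1, which act on initiation from outside, had 0 of 8, which again allows 36.9%. With so few genes in each role, each role's interval includes the 11.4% of the background.

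Among 8 initiation factor genes listed by name, 0 had a peak, a count that allows 36.9% and so includes the 11.4% of the background. Eif2b5, Eif3j1 and Eif4b, described above, are not among these 8. Eif4e, which binds the cap, was 36.96 kb from the nearest summit, which lay at an end of Metap1. Eif4g1, the scaffold of the cap complex, was 81.3 kb away and Eif4ebp1, the mTOR-regulated inhibitor of Eif4e, 85.9 kb. For Eif2s1, the Eif2 subunit that stress kinases phosphorylate, the distance was 112.7 kb. Eif2ak4, the kinase that senses uncharged transfer RNA, was 14.6 kb from a summit at an end of Gpr176. Eif5a, whose protein carries the modified amino acid hypusine, was at 14.2 kb, and Eif6, which keeps the subunits apart, at 127.6 kb.

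Of 4 ribosomal protein genes listed by name, which do not include the 7 with a peak, 0 had one, a count that allows 60.2%. Rps6, the substrate of the S6 kinases, was 16.99 kb from a summit beside Acer2. Rpl11, which can bind the p53 regulator Mdm2, was 27.9 kb away from one, Rpl13a 105.6 kb and Rps3 142.4 kb.

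The 5 kb limit did not cut through a run of members. The farthest summit counted was the one 2406 bp from Rpl35a. Among members just beyond the limit, the nearest summit was 8910 bp from Eif4enif1, 9404 bp from Eif4a1, 10049 bp from Eif4g3 and 12307 bp from Rpl13. The summit nearest to Eif4a1, which encodes the main cap-complex helicase, lay at an end of Senp3. That nearest to Eif4enif1 scored 58.0, far above every member's own summit, and lay 8111 bp from the nearest end of a protein-coding gene. With flanks of 10 kb the count became 16 of 143 (11.2%), against 13.0% of all protein-coding genes.

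Members without a peak had shorter median distances to a summit than all protein-coding genes without one. The protein-coding genes compared here include the olfactory and vomeronasal receptor genes. The median was 146.4 kb for the 80 ribosomal protein genes without a peak, 113.2 kb for the 50 such initiation factor genes and 288.8 kb for all protein-coding genes without one. A distance above 5 kb and up to 50 kb was found for 20 of the ribosomal protein genes, 14 of the initiation factor genes and 2814 of the protein-coding genes. As shares of each set these are 22.99%, 25% and 12.8%. Ribosomal protein genes also lay among more neighbours, with a median of 5 other protein-coding genes centred within 100 kb, against 3 for initiation factor genes and 3 for all protein-coding genes. These values were computed after the data were seen, genes that lie side by side share summits, and the part of gene density in the distances was not tested.

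**Figure D3:**
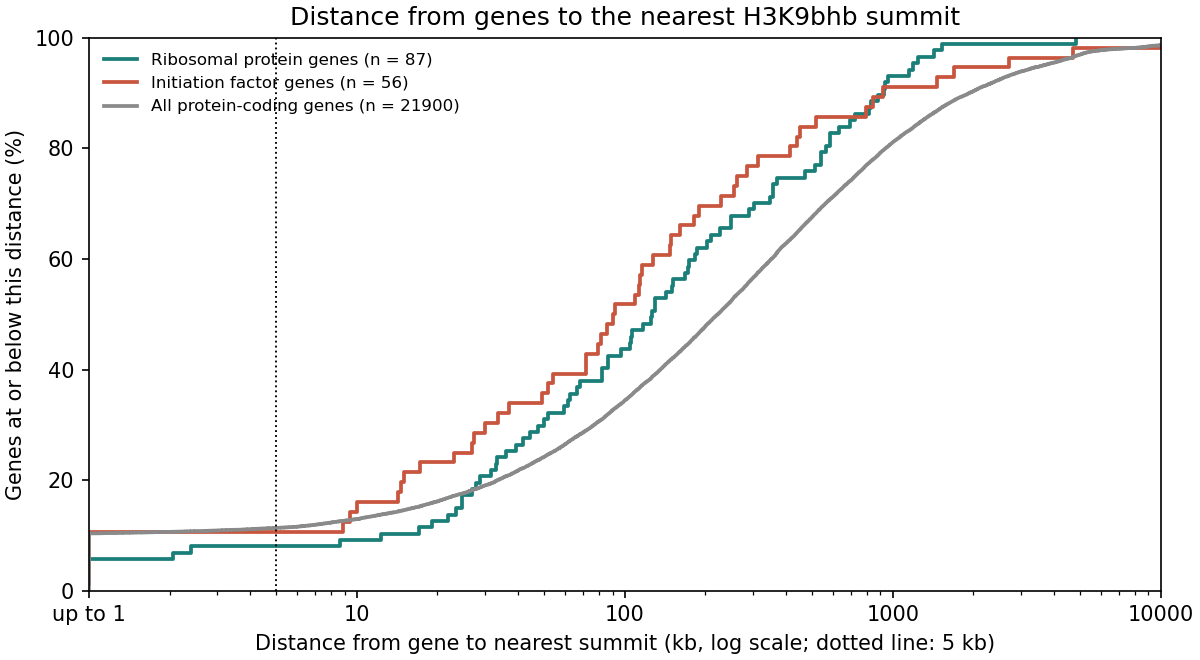
Share of genes (vertical axis, percent) whose nearest H3K9bhb summit lies at or below the distance on the horizontal axis (kb, log scale, from the ends of the gene, distances up to 1 kb drawn at 1) for the 87 ribosomal protein, 56 initiation factor and 21900 protein-coding genes. At 5 kb (dotted line) the family curves lie at 8.05% and 10.7% and that of all protein-coding genes at 11.4%. At 100 kb both families lie above all protein-coding genes.

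Some short promoter motifs were commoner in these families than in promoters at large, by count and without a test, and also in members without a peak. The ETS core CCGGAA or its complement was present in 31 of 67 ribosomal protein promoters (46.3%) and 20 of 44 initiation factor promoters (45.5%), against 19.1% of all 17492 promoters of protein-coding genes. Of the promoters of members without a peak it was in 46.0%. Among genes with a summit within 1 kb of a start, the core was in 4 of 4 ribosomal protein promoters, 1 of 6 initiation factor promoters and 27.1% of all 1606. In the printed sequences it begins 29 bases before the listed start in Rps10, 38 before in Rpl19, 20 before in Rpl38 and 9 after in Rps27l. Eif3m holds it 3 times, and Eif5b, Eif3j1 and Eif4b hold none within this window.

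The pyrimidine run CTTTCC or its complement was in 31 of 67 ribosomal protein promoters (46.3%), 9 of 44 initiation factor promoters (20.5%) and 25.8% of all. On the sense strand and beginning within 10 bases of the listed start, where a TOP element lies, it was in 10 of 67 ribosomal protein promoters (14.9%), 0 of 44 initiation factor promoters and 1.06% of all; a count of 0 of 44 allows a share of 6.82%. In the printed sequences Rpl38 has it at the first transcribed base and Rps10 from the base 4 further on. Only this exact run was counted at the start, so other pyrimidine runs are missed and the count is not one of TOP elements. Rps6, for example, has no match but begins with a run of pyrimidines at its listed start. Of the promoters with a summit within 1 kb of a start, 2 of 4 ribosomal protein promoters had such a run at the start, and 1.06% of all 1606 did. The longer run CTCTTTC, on either strand, was in 25.4%, 9.09% and 7.69% of the ribosomal protein, initiation factor and all promoters.

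The other motifs searched on both strands were GATGGC (the YY1 core), GGGCGG (the GC box), CACGTG (the E-box), TATAAA (the TATA box) and GATTGG (the CCAAT box). The YY1 core was in 23.9% of ribosomal protein, 15.9% of initiation factor and 13.5% of all promoters, and the GC box in 55.2%, 72.7% and 46.3% of them. The E-box stood in 7.46%, 18.2% and 7.91%, the TATA box in 11.9%, 9.09% and 13.3%, and the CCAAT box in 16.4%, 13.6% and 18.8%. None of these short motifs was searched for as a bound site, and no factor's binding was measured here. Promoters with a summit near the start were rich in C and G. The median G and C content was 62.3% in the 4 ribosomal protein promoters with such a summit, 64.8% in the 6 initiation factor promoters and 66.7% in all 1606, against 56.3% in all protein-coding promoters. Members without a peak had 58.0%.

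**Figure D4:**
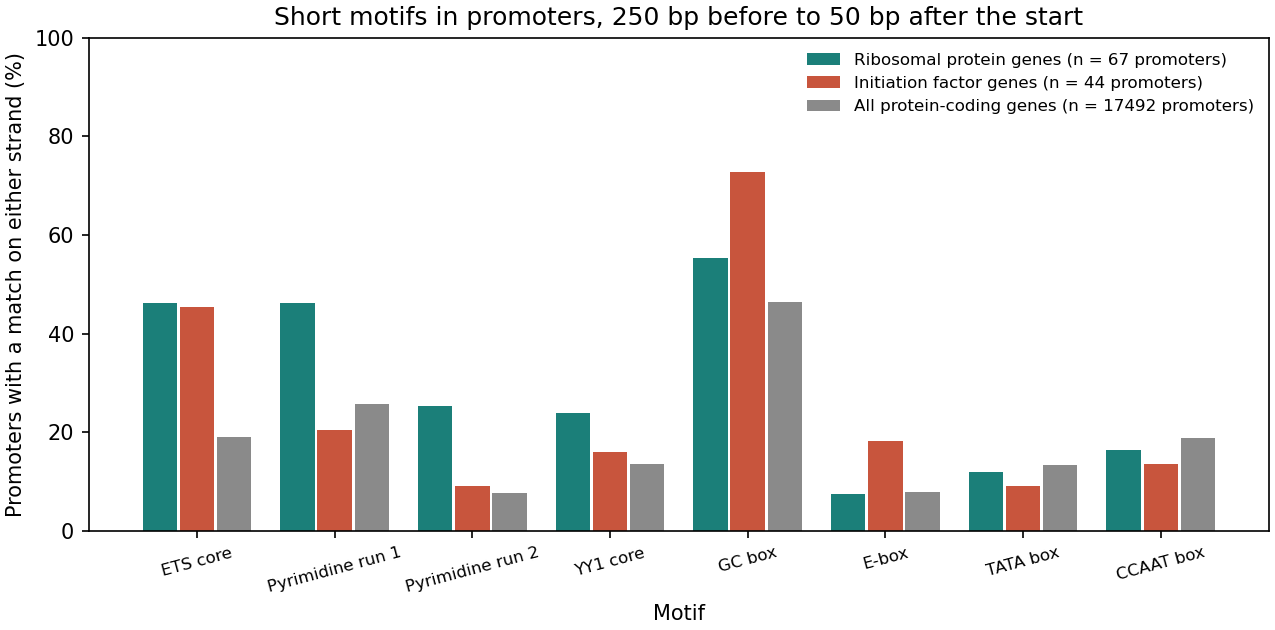
Share of promoters (vertical axis, percent) with a match on either strand for 8 short motifs, in 67 ribosomal protein, 44 initiation factor and all 17492 promoters of protein-coding genes, 1 promoter a gene. Pyrimidine run 1 is CTTTCC and run 2 is CTCTTTC; the ETS core is about as common in both families, and both pyrimidine runs are commonest in ribosomal protein promoters.

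Genes with related work were counted the same way, against the same 11.4% of all protein-coding genes, and their highest summit scores stand in parentheses. Of 6 ribosomal protein genes whose symbols fall outside the rule (among them Rplp0, Rplp1 and Rpsa) 0 had a peak, which allows a share of 45.9%. Elongation and release factors had 3 of 13: Etf1 (7.89), a release factor, Eef2k (5.63), the kinase of elongation factor Eef2, and Gspt1 (4.54), the partner of Etf1; the Gspt1 summit was nearer to an end of a predicted gene. Helpers and regulators of initiation had 2 of 15, the Rps6k kinase genes Rps6ka1 (2.49) and Rps6ka3 (2.12). Rps6kb1 and Rps6kb2, in the same list, had no peak. Cytosolic aminoacyl-tRNA synthetases, which load amino acids onto transfer RNA, had 3 of 19: Qars (10.8), Dars (6.63) and Yars (5.63), of which the Qars and Yars summits were nearer to Qrich1 and S100pbp.

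Ribosome biogenesis genes had 6 of 43 with a peak. At Rrp1 (6.83) and Gnl2 (2.51), known from yeast for assembly of the large subunit, the summit was 191 and 235 bp from an end of the gene. At Utp18 (9.65), known from yeast for processing of small subunit RNA, Rrn3 (7.95), a factor of RNA polymerase I, and Tsr1 (3.06), a small subunit assembly factor, it was nearer to another gene, namely Mbtd1, Ntan1 and Sgsm2. Together these lists gave 14 of 96 genes (14.6%, interval 8.21 to 23.3), against 11.4% of all protein-coding genes. When a summit was counted for the gene with the nearest end alone, 7 of 96 (7.29%) had one, against 9.26%. The mitochondrial ribosomal proteins, a separate set of nuclear genes, had 7 of 78 (8.97%, interval 3.68 to 17.6), against 8.05% of the cytosolic ones and 11.4% of all protein-coding genes. The mitochondrial set has longer genes, with a median of 7690.5 bp, against 3164 bp for the cytosolic one. Among genes under 5 kb, 0 of 25 mitochondrial ones had a peak, a count that allows 13.7%. This stands against 6 of 71 cytosolic ones (8.45%) and 3.96% of all protein-coding genes. None of these differences was tested.

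Many ribosomal protein genes have near-identical processed copies in the genome. The table names 303 pseudogenes after ribosomal protein genes and 10 after initiation factors; of the genes with a peak, Rpl23a has 13 of them, Rpl19 has 12, Rpl35a 6, Rps10 4 and Rpl38 2. How reads that map to several places were treated is not stated in the sources, so calls and missing calls over exons of these genes are uncertain, and their part in the ribosomal protein count was not tested.

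Ribosomal protein pseudogenes, which lack the introns and promoters of their parent genes, had summits about as rarely as pseudogenes in general. Of the 303 pseudogenes named after ribosomal protein genes, 0 had a summit inside, a count that allows about 0.990% (3 counts over the total). Of all 10442 pseudogenes 19 had one inside, a smaller share than that limit, so the 0 does not set these apart. Within 5 kb, 3 of these pseudogenes had one (0.990%, interval 0.205 to 2.87), against 0.718% of all 10442 pseudogenes. The 3 were Rpl30-ps6 on chromosome 1 (score 6.63), whose summit lay 44279 bp from the nearest end of a protein-coding gene, Rpl35a-ps7 on chromosome 6 (2.51), with a summit 74 bp from an end of Pdia4, and Rps19-ps10 on chromosome 10 (5.98), with one 195 bp from an end of Gopc. These genes were chosen after their values were seen.

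Small nucleolar RNA genes, which often lie in introns of ribosomal protein genes, were inside 28 of the 87, of which 2 (Rpl23a and Rps20) had a peak (7.14%, interval 0.877 to 23.5). Of the other 59, 5 had one (8.47%, interval 2.81 to 18.7), and both intervals include the 11.4% of all protein-coding genes. The initiation factor genes that hold such an RNA had 0 of 7, a count that allows 41.0%, and those without had 6 of 49 (12.2%).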

How the data were processed

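The deposited file is the peak list of the ChIP library, in the layout of a MACS2 summit file: a position of 1 bp, a peak name and a score. The score is the authors' −log10 p or q value at the summit; the sources used here do not say which, and it was used within this list alone. The submitters' processing notes name FastQC 0.11.8, Trimmomatic 0.39, Bowtie2 2.3.5, MACS2 2.1.2 and build mm10; their settings, the use of the input as control and the handling of duplicates and of reads with several positions are not known from the sources used here. Peak widths and read counts were not analysed, so the depth behind a peak is unknown.

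All 2315 summits (2204 peaks) were set against RefSeq tables of GRCm38.p6, the assembly that mm10 denotes, in Python 3.11.15 (numpy 2.4.6, pandas 2.3.3, scipy 1.17.1, statsmodels 0.14.6, matplotlib 3.10.9). Positions are 1-based. A gene had a peak when any summit lay inside it or within 5 kb. The design named distance from the start where strand was at hand; the promoter table gave it. Shares carry exact (Clopper-Pearson) and differences of shares Newcombe 95% intervals. With 1 library there is no test and no p-value. The counting code was tested on simulated summits. Every member with a peak is named, with the 5 just beyond 5 kb and 12 genes listed by name; in other lists, members with a peak are named, up to 6 a list. A few genes covered by this rule enter the counts and are not named in the text. Members, lists and measures were chosen with earlier results of these data known. Alternatives changed the flank, the summits used, the score threshold, the gene assigned and the members kept.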

Additional observations from a re-analysis of the deposited data

How the results depend on the processing

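No paired analysis was possible because there is 1 ChIP library and no test. Scores cut the counts most, by construction, since fewer summits are used: the 50% of summits with the highest scores left 2 ribosomal protein, 3 initiation factor, 5 member and 8 other translation genes with a peak, against 5.82% of all protein-coding genes, and the top 25% left 2, 1, 3 and 5, against 3.04%. Summits within 2 kb of a gene end alone gave 4 ribosomal protein genes (background 9.40%). A summit within 1 kb of a listed start, a setting chosen after seeing the data, gave 4 ribosomal protein and 7 other translation genes (background 7.33%). In these counts and this background, genes with no listed start count as having no such summit. A summit inside the gene left 8 other translation genes (background 8.71%), and assigning each summit to the gene with the nearest end left 7 (background 9.26%). The summits lost lie outside those genes, except at Gspt1, which the nearest-end setting also lost. Its highest-scoring summit lies inside the gene but nearer to an end of a predicted gene. Initiation factors kept the same 6 genes under every flank from 0 to 5 kb and under both of these assignments. The difference between the families, -2.67 percentage points in the main count, turned to 0.51 among the 25% of summits with the highest scores (2 of 87 against 1 of 56 genes), a setting added for this value after seeing the data. Under the other alternatives run it was negative, from -7.67 to -2.67, and every one of these values lies inside its interval. The value -7.67, for summits within 1 kb of a start, was taken over the 111 members with a listed start alone. The median distance of member summits from a listed start was 160 bp, and 172.5 and 153 bp under its alternatives. With 56 and 87 genes, shares within several percentage points of the background cannot be told from it.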

Other observations

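Of the 6 member genes on the X chromosome, among them Rps4x, Rpl10 and Eif2s3x, 0 had a peak, a count that allows a share of 45.9%. Of all 966 protein-coding genes on X, 1.86% had one.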
